A study of Homo sapiens with 83 samples.

Results

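BHLHE40 and BHLHE41 are the 2 genes described here, of 60237 gene entries measured. They were picked by symbol because their difference between MYC-ON and MYC-OFF cells was not the same in 2 neuroblastoma cell lines, so their MYC-ON against MYC-OFF levels are given as a description, with no test. RNA sequencing of polyadenylated RNA covered 83 libraries of SHEP and SKNAS cells. Every culture carried N-MYC-ER, an N-MYC protein fused to an estrogen receptor domain that becomes active when 4-hydroxytamoxifen (4OHT) is given, and every culture received dexamethasone to set its circadian clock. SHEP MYC-OFF (ethanol vehicle) and SHEP MYC-ON (4OHT) each had 28 libraries, from 2 series sampled every 4 h between circadian time (CT) 24 and CT76. SKNAS MYC-OFF had 14 libraries over the same CTs, and SKNAS MYC-ON had 13, ending at CT72. SKNAS is thus 1 time series per condition here, and the time points of a series stand in for replicates throughout. MYC was switched on in both lines through this introduced fusion protein, and no group without it was analysed.

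BHLHE40 (DEC1) and BHLHE41 (DEC2) are basic helix-loop-helix repressors of the Orange-domain family, relatives of the HES and HEY proteins. They bind the E-box CACGTG, the same letters that CLOCK and ARNTL (BMAL1) use to activate the PER, CRY and NR1D genes and that MYC-MAX dimers bind. They thereby form a feedback arm of the clock, and both are also known as genes that respond to hypoxia and to growth signals.

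BHLHE40 (ENSG00000134107) lies on the plus strand at chr3:4979437-4985323 of GRCh38 and has 5 exons and 412 codons in its canonical transcript. BHLHE41 (ENSG00000123095) lies on the minus strand at chr12:26120030-26125037, with 5 exons and 482 codons. The 250 bases before each start are shown because both contain the E-box letters, here in capitals. They are RefSeq sequence on GRCh38.p14, written 5′ to 3′ on the strand of the gene, from chr3:4979187-4979436 and chr12:26125038-26125287.
BHLHE40: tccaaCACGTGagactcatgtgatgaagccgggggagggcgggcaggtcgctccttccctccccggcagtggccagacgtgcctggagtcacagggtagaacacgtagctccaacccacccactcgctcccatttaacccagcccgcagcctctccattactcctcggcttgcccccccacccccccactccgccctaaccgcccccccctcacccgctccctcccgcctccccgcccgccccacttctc
BHLHE41: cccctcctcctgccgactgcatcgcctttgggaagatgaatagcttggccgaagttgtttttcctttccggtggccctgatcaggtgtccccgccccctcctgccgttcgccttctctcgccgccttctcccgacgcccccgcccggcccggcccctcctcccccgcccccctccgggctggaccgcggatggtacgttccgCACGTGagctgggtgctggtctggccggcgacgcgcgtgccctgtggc

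Each window held CACGTG once, 245 bases before the start in BHLHE40 and 48 bases before it in BHLHE41. Of 35116 promoter windows of the same length, 6.34% held CACGTG. In both genes the E-box was followed by AG. CACGTGAG, searched on both strands after the sequences had been seen, was in 0.73% of the windows. The hypoxia-response core, ACGTG or GCGTG on either strand, matched 4 times in BHLHE40 and 3 times in BHLHE41, with 2 of the matches in each gene inside the E-box itself. This core was in 43.21% of all windows. The D-box TTANGTAA was in neither window and in 1.98% of all windows. A match is a run of letters, and no binding was measured.

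The values were TPM, an abundance scaled to gene length and to a fixed library total, so the depth of each library is unknown and no counting error can be given. In bulk RNA, fewer cells expressing a gene and less RNA per cell cannot be told apart. The median log2(TPM + 1) over expressed genes lay between 3.93 and 4.17 in SHEP libraries, whereas in SKNAS it ran from 2.97 to 4.38 without MYC activation and from 2.75 to 4.25 with it. Of 8 mesenchymal neuroblastoma markers, a mean of at least 1 TPM was reached by 8 in SHEP MYC-ON and by 7 in each other group, with summed levels of 3401 to 5394 TPM in SHEP and 673.1 to 2630 TPM in SKNAS. Most of each sum was VIM, with a mean of 3469 TPM in SHEP MYC-OFF and 1431 TPM in SKNAS MYC-OFF. PRRX1 was the 1 listed mesenchymal marker with lower means in SHEP. It averaged 0.63 TPM with MYC off and 4.11 TPM with MYC on there, and 67.7 and 55.1 TPM in SKNAS. Of 8 noradrenergic markers, 2 reached a mean of at least 1 TPM in SHEP and 5 in SKNAS. DBH and TH, which encode enzymes of noradrenaline synthesis, were below it in all 4 groups. In SKNAS the noradrenergic sum was 263.8 to 611.0 TPM with MYC off and 82.8 to 260.9 TPM with MYC on, so it moved with the condition there, and its part in the values of BHLHE40 and BHLHE41 was not tested.

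BHLHE40 was far more abundant in SHEP than in SKNAS. In SHEP MYC-OFF it ranged from 76.7 to 172 TPM with a median of 100.4, and its mean was 107 ± 24.2 TPM (SD, n = 28). In SHEP MYC-ON it ranged from 59.0 to 112 TPM with a median of 75.4, and its mean was 75.8 ± 10.9 TPM (SD, n = 28). The groups overlapped: 16 of the 28 MYC-ON libraries lay below the lowest MYC-OFF library, and 11 of the 28 MYC-OFF libraries lay above the highest MYC-ON library. In SKNAS MYC-OFF it ranged from 0.607 to 8.39 TPM with a median of 5.39, and its mean was 5.13 ± 2.34 TPM (SD, n = 14). In SKNAS MYC-ON it ranged from 4.11 to 23.1 TPM with a median of 11.5, and its mean was 11.8 ± 6.14 TPM (SD, n = 13). Here 9 of the 13 MYC-ON libraries lay above the highest MYC-OFF library, and no SKNAS library reached the lowest SHEP library. Of the genes with a mean of at least 1 TPM, 10.0% stood above BHLHE40 in SHEP with MYC off and 15.0% with MYC on. In SKNAS 74.1% stood above it with MYC off and 51.5% with MYC on, so there it lay in the middle of the range once MYC was on.

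BHLHE41 was lower than BHLHE40 in SHEP, and its MYC-ON means were close in both lines. In SHEP MYC-OFF it ranged from 3.79 to 17.05 TPM with a median of 8.61, and its mean was 8.80 ± 2.57 TPM (SD, n = 28). In SHEP MYC-ON it ranged from 12.4 to 40.2 TPM with a median of 18.0, and its mean was 19.8 ± 6.40 TPM (SD, n = 28). All but 1 of the 28 MYC-OFF libraries lay below the lowest MYC-ON library, the exception being series 2 at CT44. In SKNAS MYC-OFF it ranged from 0.715 to 4.65 TPM with a median of 2.62, and its mean was 2.66 ± 1.16 TPM (SD, n = 14). In SKNAS MYC-ON it ranged from 6.62 to 49.98 TPM with a median of 15.7, and its mean was 17.4 ± 11.9 TPM (SD, n = 13). The SKNAS groups did not overlap. For neither gene was the share of all genes with groups equally far apart counted. Of the 13 SKNAS MYC-ON libraries, 6 lay below the lowest SHEP MYC-ON library and 1 above the highest. In the 3 whose median log2(TPM + 1) was at least 3.8, as it was in every SHEP library, BHLHE41 ranged from 23.6 to 49.98 TPM. The order of the means was SHEP MYC-ON, SKNAS MYC-ON, SHEP MYC-OFF and SKNAS MYC-OFF. Neighbours in this order overlapped in range, and the means of the first and second differed by less than their SDs.

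**Figure D1:**
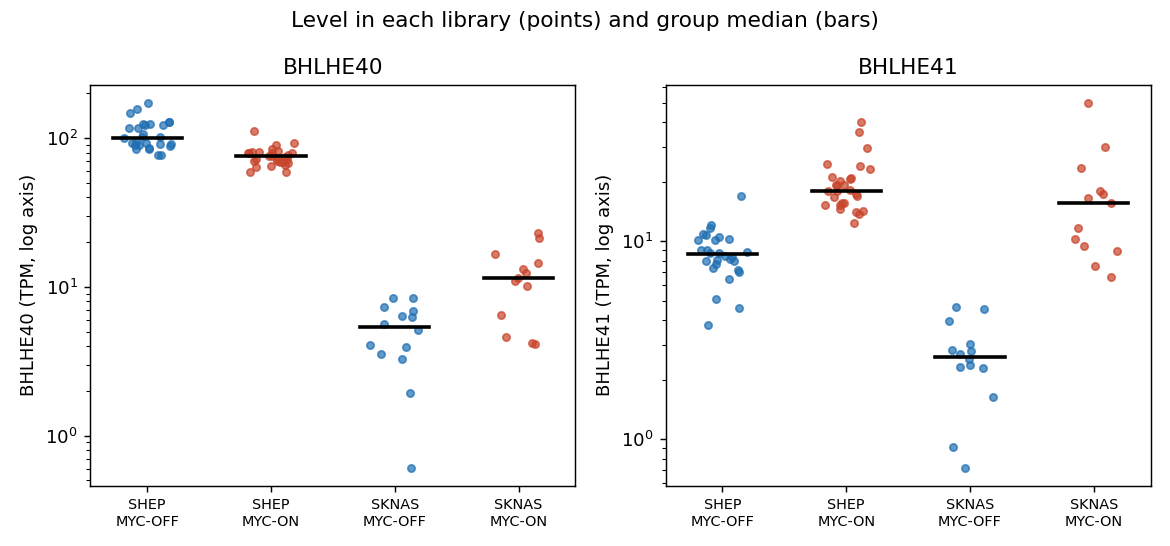
TPM on a log axis for BHLHE40 (left) and BHLHE41 (right) in each of the 4 groups, with 1 point per library and a black bar at the group median. The BHLHE40 median was 75.4 TPM with MYC on against 100.4 TPM with MYC off in SHEP, and 11.5 against 5.39 TPM in SKNAS, while the BHLHE41 median was higher with MYC on in both lines.

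Libraries of the same CT were then set side by side, in SHEP between series of the same number, which are not known to be pairs. BHLHE40 was lower in MYC-ON than in MYC-OFF in 27 of 28 SHEP pairs, with differences from -0.80 to 0.01 on the log2(TPM + 1) scale, and the 1 pair that was not lower was series 1 at CT76. In SKNAS it was higher in MYC-ON in 13 of 13 pairs, with differences from 0.03 to 2.17. BHLHE41 was higher in MYC-ON in 28 of 28 SHEP pairs, from 0.16 to 2.12, and in 13 of 13 SKNAS pairs, from 0.92 to 3.79. The 2 genes thus differed between conditions in opposite directions in SHEP and in the same direction in SKNAS. Such counts were not made for all genes.

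With CT as a factor, the MYC-ON minus MYC-OFF difference of BHLHE40 was -0.48 (SE 0.048) in SHEP and 1.03 (SE 0.18) in SKNAS. For BHLHE41 it was 1.08 (SE 0.096) in SHEP and 2.18 (SE 0.23) in SKNAS. All of these are log2(TPM + 1) differences, on which a given fold change of a scarce transcript gives a smaller value. The difference between lines, SKNAS minus SHEP, was 1.51 (SE 0.13) for BHLHE40 and 1.10 (SE 0.21) for BHLHE41. These contrasts chose the genes, so their place among all genes is a description. Of the genes tested, 81.6% had a difference at or above that of BHLHE40 in SHEP and 3.11% in SKNAS. For BHLHE41 the shares were 2.77% and 0.39%. A gene was called in limma when its difference reached 0.15 log2 units with an adjusted p no higher than 0.05, which held for 71.8% of 14362 genes in SHEP, 48.1% of 13886 in SKNAS and 51.5% of 14870 between the lines, 13.4% upward and 38.1% downward. The median difference of all genes was -0.04 in SHEP and -0.29 in SKNAS, and median-of-ratios rescaling of the libraries moved the SKNAS median to 0.03 and the share of called genes that were higher from 28.5% to 53.6%. It also moved the calls between the lines to 25.5% upward and 24.6% downward. With that rescaling BHLHE40 differed by -0.43 in SHEP and 1.37 in SKNAS, and BHLHE41 by 1.12 and 2.50.

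In SKNAS the level of both genes moved with the library median, and so did that of MYCN, whose reads come from the fusion and from any MYCN of the cell's own. In MYC-ON libraries MYCN ranged from 633.3 to 1046 TPM at a library median of at least 3.8 but from 13.1 to 86.6 TPM under 3.3, and in MYC-OFF libraries from 516 to 987 TPM and from 29.1 to 50.3 TPM. The libraries of low median thus held little MYCN transcript in either condition, and its part in the levels of BHLHE40 and BHLHE41 was not tested. Within MYC-ON the Pearson correlation with the library median was 0.98 for BHLHE40 and 0.92 for BHLHE41 over 13 libraries, and within MYC-OFF it was 0.85 and 0.76 over 14 libraries. The points share a scaling to the library total and a single culture series. Among libraries with a median of at least 3.8, BHLHE40 ranged from 3.3 to 8.39 TPM in 10 MYC-OFF libraries and from 16.7 to 23.1 TPM in 3 MYC-ON libraries. Among libraries with a median under 3.3, it ranged from 0.607 to 3.53 TPM in 3 MYC-OFF libraries and from 4.11 to 6.43 TPM in 4 MYC-ON libraries. BHLHE41 ranged from 1.63 to 4.65 TPM against 23.6 to 49.98 TPM in the first band, and from 0.715 to 2.28 TPM against 6.62 to 9.44 TPM in the second. Between these bands stood 1 MYC-OFF library, with 3.95 TPM of BHLHE40 and 2.69 TPM of BHLHE41, and 6 MYC-ON libraries, with 10.1 to 14.5 TPM and 10.3 to 18.0 TPM. In every band the MYC-ON libraries lay above the MYC-OFF libraries for both genes. With only the libraries of at least 3.8, the log2 difference was 1.58 (SE 0.32) for BHLHE40 and 2.99 (SE 0.31) for BHLHE41. SKNAS minus SHEP was then 2.06 (SE 0.19) for BHLHE40 and 1.92 (SE 0.37) for BHLHE41. These fits compare libraries of the same CT. MYC-OFF at CT52 had a median of 3.62, so the SKNAS differences rest on the pairs at CT32 and CT44 alone.

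**Figure D2:**
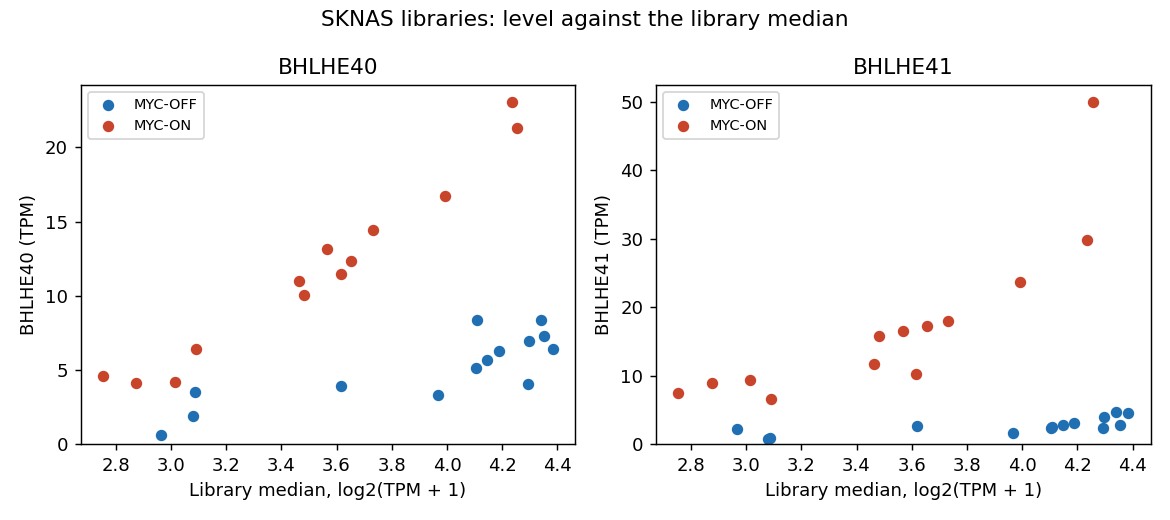
TPM of BHLHE40 (left) and BHLHE41 (right) in each SKNAS library against the library's median log2(TPM + 1), with MYC-OFF in blue and MYC-ON in red. Levels were higher at higher library medians in both conditions, and at a median of at least 3.8 the 3 MYC-ON libraries sat at 16.7 to 23.1 TPM of BHLHE40, above all 10 MYC-OFF libraries.

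Because TPM is per length, the 2 genes can be compared within a library. In SHEP, BHLHE41 made up 8.02% ± 3.12 (SD, n = 28) of the summed TPM of both genes with MYC off. With MYC on, its share there was 20.8% ± 6.11 (SD, n = 28). The SKNAS shares were 35.6% ± 13.8 (SD, n = 14) with MYC off, reaching 78.96% at CT56 where BHLHE40 was lowest, and 58.8% ± 7.24 (SD, n = 13) with MYC on. BHLHE40 thus stayed the more abundant of the pair in every SHEP library, where the share of BHLHE41 never exceeded 38.0%. The sum itself averaged 116 ± 22.7 TPM (SD, n = 28) without and 95.6 ± 10.3 TPM (SD, n = 28) with MYC activation in SHEP. In SKNAS it averaged 7.79 ± 3.26 TPM (SD, n = 14) without and 29.1 ± 17.4 TPM (SD, n = 13) with MYC activation.

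**Figure D3:**
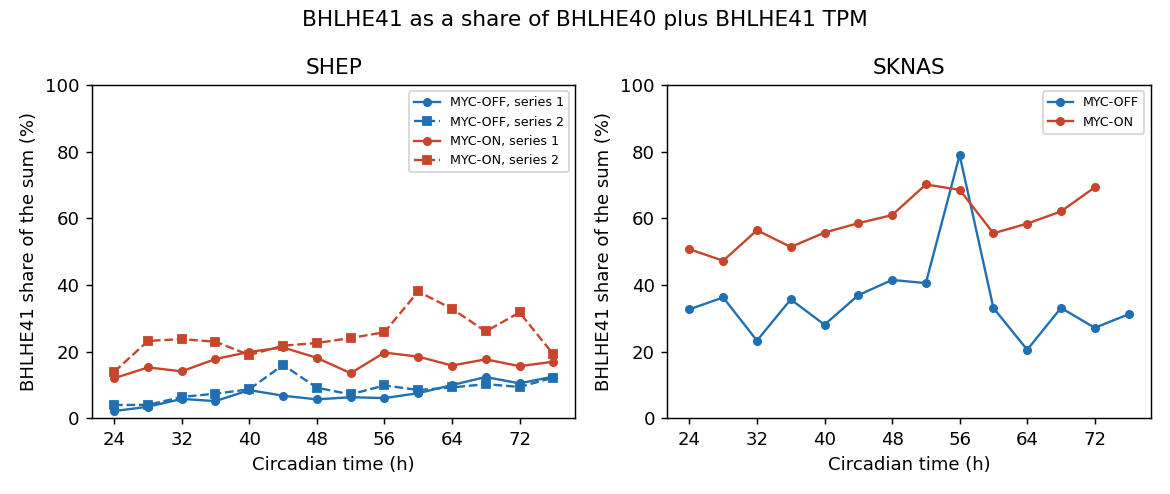
BHLHE41 as a percent of the summed TPM of BHLHE40 and BHLHE41 over circadian time, in SHEP (left, 2 series per condition) and SKNAS (right, 1 series per condition). In SHEP the MYC-OFF share began at 2.15% and 3.97% at CT24, and in SKNAS the MYC-ON share ranged from 47.2% to 70.1%.

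The time course was not used to choose the genes and could be tested. In SHEP MYC-OFF, BHLHE40 fell over the 2 days sampled while BHLHE41 rose. BHLHE40 was at 172 TPM in series 1 and 156 TPM in series 2 at CT24, and at 76.7 and 84.8 TPM at CT76. BHLHE41 was at 3.79 and 6.44 TPM at CT24, and at 10.95 and 11.7 TPM at CT76. The linear trend of BHLHE40 was -0.36 log2 units per 24 h (SE 0.041, limma adjusted p = 4.88e-07), and that of BHLHE41 was 0.33 (SE 0.086, limma adjusted p = 0.0071). By the same test, 15.9% of 14264 genes had a trend, 5.78% upward and 10.1% downward. The BHLHE40 trend held in each series alone and without CT24, with values from -0.41 to -0.31. The BHLHE41 trend did not: it was 0.22 without series 1 (limma adjusted p = 0.461) and 0.26 without CT24 (limma adjusted p = 0.0589).

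In SHEP MYC-ON the fall of BHLHE40 was shallower. It went from 112 and 90.5 TPM at CT24 to 77.0 and 59.0 TPM at CT76, a trend of -0.15 per 24 h (SE 0.039, limma adjusted p = 0.00183) in a group where 57.4% of 14261 genes had a trend, 20.5% upward and 37% downward. That trend was -0.12 without series 2 (limma adjusted p = 0.0984), -0.09 without CT24 (limma adjusted p = 0.0415) and -0.08 with the library median as a covariate (limma adjusted p = 0.171). The difference of the BHLHE40 trend, MYC-ON minus MYC-OFF, was 0.22 per 24 h (SE 0.055, limma adjusted p = 0.00116), where 42.7% of genes had a difference, 15.7% upward and 27% downward. BHLHE41 in SHEP MYC-ON had a trend of 0.09 (SE 0.086, limma adjusted p = 0.364), and its trend difference was -0.24 (SE 0.13, limma adjusted p = 0.119). Its highest values, 40.2 TPM at CT60 and 35.5 TPM at CT64, were both in series 2, where series 1 had 18.1 and 14.2 TPM.

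**Figure D4:**
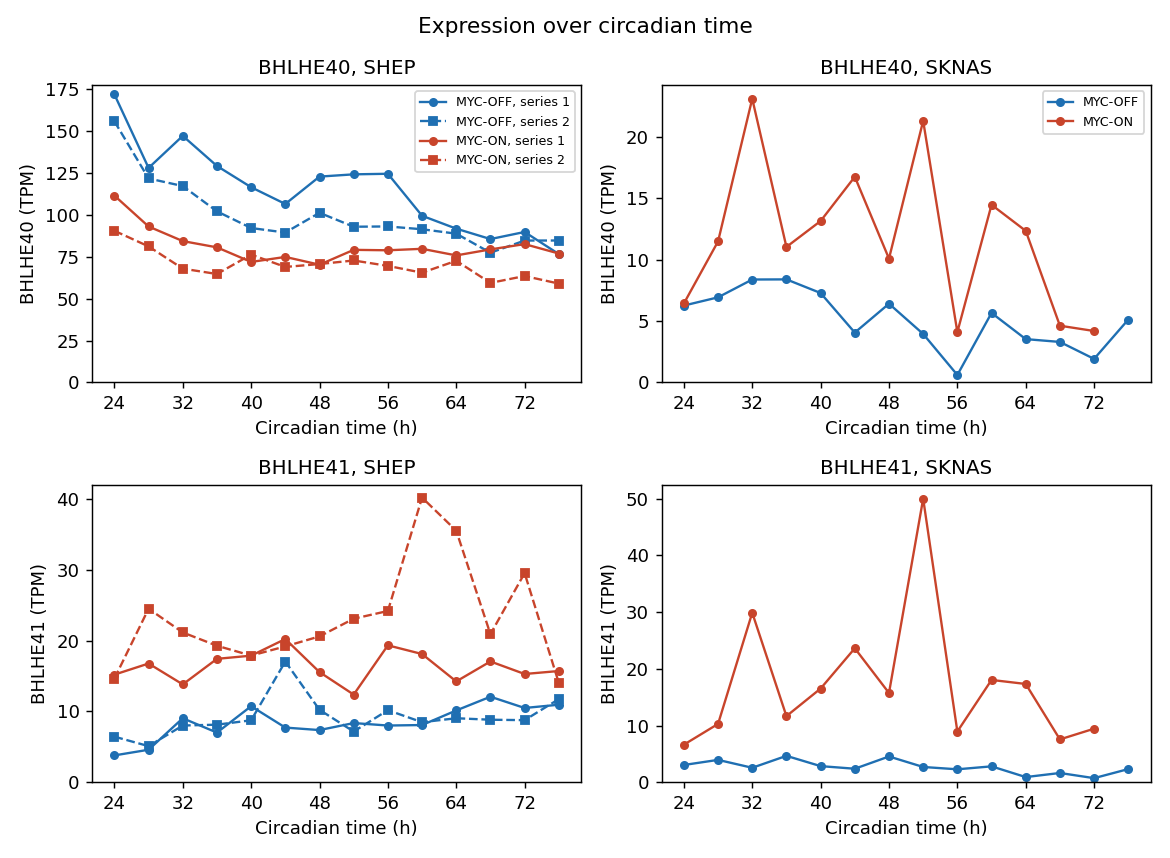
TPM over circadian time (h) for BHLHE40 (top) and BHLHE41 (bottom) in SHEP (left, series 1 as circles and series 2 as squares) and SKNAS (right), with MYC-OFF in blue and MYC-ON in red. BHLHE40 in SHEP MYC-OFF started at 172 and 156 TPM and ended at 76.7 and 84.8 TPM, and in SKNAS MYC-ON both genes were highest at CT32 and CT52.

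Whether the course repeated between the SHEP series was tested with CT as a factor. In MYC-OFF the shared change of BHLHE40 spanned 1.01 log2 units (limma adjusted p = 0.00194), where 5.15% of genes had such a change, and it spanned 0.70 without CT24 (limma adjusted p = 0.0328). For BHLHE41 the span was 1.10 (limma adjusted p = 0.132). In MYC-ON the spans were 0.57 for BHLHE40 (limma adjusted p = 0.0788) and 0.82 for BHLHE41 (limma adjusted p = 0.57), where 26.3% of genes had a shared change.

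No trend passed in SKNAS. In MYC-OFF it was -0.58 for BHLHE40 (SE 0.23) and -0.48 for BHLHE41 (SE 0.16), both with a limma adjusted p of 0.131. In that group limma called 0 of 14119 genes, although 5144 had an unadjusted p under 0.05. Both genes passed when CT76 was left out, at -0.75 (limma adjusted p = 0.038) and -0.58 (limma adjusted p = 0.0379). The share of all genes that passed without CT76 was not counted, so these calls cannot be read as particular to BHLHE40 and BHLHE41. With the library median as a covariate, the trends were -0.16 for BHLHE40 (limma adjusted p = 0.909) and -0.26 for BHLHE41 (limma adjusted p = 0.694). In MYC-ON the trend was -0.46 for BHLHE40 (SE 0.30, limma adjusted p = 0.616) and -0.04 for BHLHE41 (SE 0.34, limma adjusted p = 0.948), where 0.112% of 13365 genes had a trend, 0.0299% upward and 0.0823% downward. The trend difference, MYC-ON minus MYC-OFF, was 0.12 (SE 0.38) for BHLHE40 and 0.44 (SE 0.36) for BHLHE41, each with a limma adjusted p of 0.999, and 0.0792% of genes passed, 0.0288% upward and 0.0504% downward. Both MYC-ON courses were jagged: BHLHE40 was at 23.1 TPM at CT32 and 21.3 TPM at CT52, but at 4.10 TPM at CT56, and BHLHE41 was at 29.9, 49.98 and 8.94 TPM in the same libraries. The library medians there were 4.24, 4.25 and 2.88.

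A 24 h rhythm was detected for neither gene in any group. In SHEP the fitted amplitude of BHLHE40 was 0.088 log2 units with MYC off (limma adjusted p = 0.5) and 0.060 with MYC on (limma adjusted p = 0.687). That of BHLHE41 was 0.15 in both conditions (limma adjusted p = 0.639 with MYC off, limma adjusted p = 0.624 with MYC on). In those groups 0.0911% and 0.021% of genes passed, and 1487 of 14264 and 1528 of 14261 had an unadjusted p under 0.05. In SKNAS the amplitudes lay between 0.13 and 0.31, with limma adjusted p values of 0.993 or more, and limma called 0 genes, with 63 genes at an unadjusted p under 0.05 in MYC-OFF and 46 in MYC-ON. The rhythm did not differ detectably between conditions for either gene, with limma adjusted p values of 0.965 or more, and limma called 0 genes, with 709 in SHEP and 73 in SKNAS at an unadjusted p under 0.05. Each series had 14 or 13 points, which limits what size of rhythm could be detected. In SKNAS the genes at an unadjusted p under 0.05 were far fewer than the share of 0.05 that genes without rhythm would give. The SKNAS fits thus had little ability to call a rhythm, and they do not show that it was absent. Why so few genes reached that p was not tested.

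The 2 genes moved against each other in SHEP and together in SKNAS over the time points of a group. Their Pearson correlation was -0.67 with MYC off and -0.41 with MYC on over 28 SHEP libraries each. In SKNAS it was 0.60 over the 14 MYC-OFF libraries and 0.87 over the 13 MYC-ON libraries. These are descriptions, since the points share series, trend and library scaling. In SKNAS each gene also followed the library median, with correlations of 0.85 and 0.76 with MYC off and 0.98 and 0.92 with MYC on. In SHEP those correlations were 0.14 and -0.03 with MYC off and 0.45 and 0.18 with MYC on. Whether the 2 genes would move together in SKNAS apart from the library median was not tested. Of 12305 other genes expressed in both lines, those most like BHLHE40 over all 83 libraries included FHL2 (r = 0.98), WWC1 (0.97), RFLNB (0.97) and ENC1 (0.97), where the libraries fall into the 2 lines, far apart in level. The most like BHLHE41 were MTURN (0.91), ENTPD1 (0.91), UAP1 (0.91), ECPAS (0.91) and SLC19A2 (0.90). In deviations from the group mean over the 56 SHEP libraries, BHLHE40 was most like SGK1 (0.86), a kinase gene induced by glucocorticoids, SLC9A3R2 (0.82), KCNMA1 (0.82), HK2 (0.82) and SERPINB7 (0.81). BHLHE41 was most like B2M (0.71), TMEM123 (0.70), CDK14 (0.70), VCAN (0.70) and ERAP2 (0.70).

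BHLHE40-AS1 (ENSG00000235831), a noncoding gene on the opposite strand at chr3:4896806-4980414 whose annotation overlaps the start of BHLHE40, averaged 0.44 ± 0.14 TPM (SD, n = 28) without and 0.29 ± 0.12 TPM (SD, n = 28) with MYC activation in SHEP. In SKNAS it did not exceed 0.106 TPM. Whether the libraries keep strand is not given in the sources used here, so reads from the overlap could have been assigned to either gene.

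Other genes of the clock were compared as a set of 19, of which 14 were tested in SHEP and 17 in SKNAS. In SHEP 10 were higher and 3 lower in MYC-ON, with a median difference of 0.65 beside -0.04 for all genes, and 33% of all genes were called higher and 38.9% lower. In SKNAS 8 were higher and 5 lower, with a median of 0.45 beside -0.29, and 13.7% of all genes were called higher and 34.4% lower. After rescaling, 11 were higher and 4 lower in SKNAS, where 27.6% of all genes were then called higher and 23.9% lower. ARNTL, the partner of CLOCK, was lower in both lines, with differences of -2.03 (limma adjusted p = 1.9e-28) in SHEP and -2.18 (limma adjusted p = 1.53e-06) in SKNAS. NR1D1, which encodes the repressor REV-ERB alpha, was higher in both, by 2.63 (limma adjusted p = 3.33e-40) and 2.51 (limma adjusted p = 3.82e-08). PER1, PER2 and PER3, the period repressors, were also higher in both lines. RORA was the 1 clock gene called in opposite directions in the lines: it was 0.29 higher in SHEP and 0.40 lower in SKNAS, but its SKNAS call was lost after rescaling (-0.08, limma adjusted p = 0.712).

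Among the bHLH-Orange relatives, HES6 had the same signs as BHLHE40. In SHEP it averaged 21.9 ± 3.77 TPM (SD, n = 28) with MYC off and 16.5 ± 4.57 TPM (SD, n = 28) with MYC on. In SKNAS it averaged 12.3 ± 4.28 TPM (SD, n = 14) with MYC off, where its highest library had 21.1 TPM, and 60.9 ± 16.3 TPM (SD, n = 13) with MYC on, where its lowest had 37.4 TPM. Its log2 difference was -0.42 (SE 0.083, limma adjusted p = 1.6e-05) in SHEP and 2.31 (SE 0.18, limma adjusted p = 1.25e-07) in SKNAS. HES1 and HES4, Notch-responsive relatives, were higher in both lines, HES1 by 1.59 and 1.80 and HES4 by 1.73 and 2.45. In all, 4 of 11 family genes were tested in SHEP, of which 3 were higher and 1 lower, and 6 in SKNAS, of which 3 were higher and 2 lower. Among all genes tested, 33% were called higher and 38.9% lower in SHEP, and 13.7% higher and 34.4% lower in SKNAS.

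**Figure D5:**
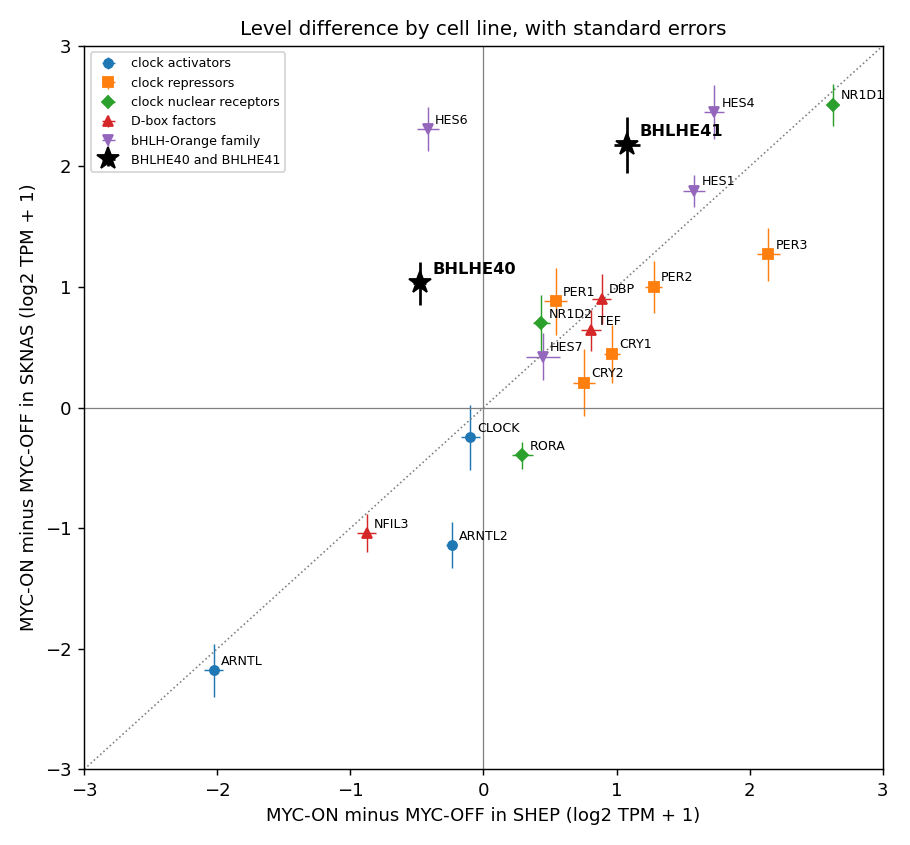
MYC-ON minus MYC-OFF difference in log2(TPM + 1) in SHEP (x axis) against SKNAS (y axis) for the genes of the clock lists and the bHLH-Orange family tested in both lines, with standard errors as bars and BHLHE40 and BHLHE41 as stars. BHLHE40 (-0.48 and 1.03) and HES6 (-0.42 and 2.31) lie in the upper left, and the dotted line marks equal differences.

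Of 7 genes described as repressed or bound by BHLHE40 or BHLHE41, 3 were higher and 3 lower in SHEP MYC-ON, and of the 6 tested in SKNAS 3 were higher and 2 lower. Of all genes, 71.8% were called in SHEP and 48.1% in SKNAS. CCND1, encoding cyclin D1, was lower in SHEP (-0.38, limma adjusted p = 5.09e-10) and higher in SKNAS (0.52, limma adjusted p = 0.0124), the same signs as BHLHE40. PPARG, an adipogenic nuclear receptor, was higher in SHEP (0.60, limma adjusted p = 4.68e-20) and lower in SKNAS (-1.31, limma adjusted p = 8.11e-06), the opposite signs. Both kept these signs with rescaling and with the library median as a covariate. PER1 and DBP of this list are also counted among the clock genes.

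The lists of signals known to act on BHLHE40 and BHLHE41 are read beside all genes, of which 33% were called higher and 38.9% lower in SHEP, and 13.7% higher and 34.4% lower in SKNAS. Of 18 hypoxia-response genes, 17 were tested in each line: 6 were higher and 7 lower in SHEP, and 3 were higher and 5 lower in SKNAS. HIF1A and EPAS1, which encode the hypoxia-inducible factors, were lower in both lines, with differences of -0.45 and -1.56 for HIF1A and of -0.37 and -1.73 for EPAS1. ANKRD37 was lower in SHEP (-0.39) and higher in SKNAS (0.77). Of 8 immediate targets of TGF-beta, all 8 were lower in SHEP, and 6 of the 7 tested in SKNAS were lower, where SMAD7 (-0.59) lost its call after rescaling (-0.28, limma adjusted p = 0.104). Of 15 E-box-binding factors of the MYC and MAX network and its relatives, 14 were tested in each line: 4 were higher and 7 lower in SHEP, and 1 was higher and 5 lower in SKNAS. MXI1, a MAX partner, was the 1 higher in both, by 1.50 and 1.44. Of 9 glucocorticoid targets, 3 of the 7 tested in SHEP were higher and 3 lower, and 2 of the 8 tested in SKNAS were higher and 3 lower.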

How the data were processed

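Per the labels, polyadenylated RNA was sequenced in paired ends. Reads that passed a quality filter were assigned by the authors to Gencode transcripts of GRCh38 in Salmon (version 1.3.0 in the submitters' processing notes), then summed per gene. The deposited values are TPM, 1 per gene and library. Every library sums to 1000000 TPM, so depth is not kept. Groups, series and CT were taken from the sample labels. The count model of the study was replaced by limma 3.58.1 (R 4.3.3) on log2(TPM + 1), because TPM are not counts. Genes with a mean of at least 1 TPM in the libraries of a fit were tested, with Benjamini-Hochberg adjustment over all of them. Level fits had CT as a factor, and time fits had series as a term in SHEP. Rhythm was the F test of 24 h cosine and sine terms. The fits were tested on simulated data. Summaries and figures used Python 3.11.15 with pandas 2.3.3 and matplotlib 3.10.9. Positions came from Gencode 44. Promoters came from RefSeq, where both genes matched.

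The members and gene lists were chosen with earlier results of these data known. Genes named were the members, listed genes called in both lines, any tested clock, bHLH-Orange or described target gene, up to 4 genes of other lists with the largest difference between lines, and the 5 genes most like each member. Some genes that the rule names are not reported here.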

Additional observations from a re-analysis of the deposited data

Results flagged for a closer look

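Besides the members, 14 of the 27 tested genes of the clock, bHLH-Orange and described target lists (51.9%) had a MYC-ON minus MYC-OFF difference that was not the same in SKNAS as in SHEP (limma interaction, adjusted over 14870 genes, of which 51.5% were called). The share called in these lists was thus close to that of all genes. Values are SKNAS minus SHEP on the log2(TPM + 1) scale. The difference was positive for HES6 (2.73), VLDLR (1.17), CCND1 (0.91) and HES4 (0.72). It was negative for PPARG (-1.91), HEY1 (-1.42), HEYL (-0.92), ARNTL2 (-0.90), PER3 (-0.87), RORA (-0.69), NPAS2 (-0.62), CRY2 (-0.55), CRY1 (-0.52) and SREBF1 (-0.44).

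VLDLR was at or below 0.247 TPM in every SKNAS library, and HEYL at or below 0.0164 TPM in every SHEP library, so for these 2 genes the value reflects a change in the other line alone. HEY1 and NPAS2 averaged under 1 TPM in both SHEP groups. The differences of CRY1, CRY2 and SREBF1 lost their calls after median-of-ratios rescaling, at -0.24, -0.26 and -0.16, and that of NPAS2 with the library median as a covariate, at -0.17. With a pseudocount of 0.1, PER3 (-0.33) and CRY2 (-0.58) lost their calls and NPAS2 turned to 0.33.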

How the results depend on the processing

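Of 472 values of 40 results under alternatives, 456 counted as unchanged, by a rule that depended on the result. Tested results had to keep their side of the adjusted p threshold, and trends also their direction. Level differences of the members had to keep their sign and move by less than the SD of the same-CT differences. Counts of genes could move within a set ratio, so that 12 clock genes higher in SKNAS, against 8, counted as unchanged. The level differences of both members, and their difference between lines, kept their sign under all alternatives run, from -0.54 to -0.43 for BHLHE40 in SHEP and from 0.94 to 1.58 in SKNAS. For BHLHE41 the ranges were 0.92 to 1.28 and 2.04 to 2.99. The difference between lines ran from 1.41 to 2.06 for BHLHE40, and for BHLHE41 from 0.94 without SHEP series 1 to 1.92 with only SKNAS libraries of a median of at least 3.8. With the library median as a covariate, the BHLHE40 trend in SHEP MYC-ON was -0.083, its trend difference in SKNAS -0.077, and the BHLHE41 trend in SKNAS MYC-ON 0.37. That trend was 0.20 after median-of-ratios rescaling. With only SKNAS libraries of a median of at least 3.8, 5 clock genes were higher and 1 lower, in a fit resting on the pairs at CT32 and CT44. Rescaling gave 11 higher and 4 lower, the covariate 12 higher and 5 lower. The cause of these changes was not tested.

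Leaving out 1 CT or series gave trends from -0.33 to 0.14 for BHLHE41 in SKNAS MYC-ON, -0.58 to -0.37 in SKNAS MYC-OFF, -0.007 to 0.19 in SHEP MYC-ON and 0.22 to 0.45 in SHEP MYC-OFF. For BHLHE40 they ranged from -0.18 to -0.088 in SHEP MYC-ON and from -0.75 to -0.50 in SKNAS MYC-OFF. Leaving out CT24 in SHEP was chosen after seeing the data.

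With the SHEP series as a replicate block, the level differences were again -0.48 (SE 0.037) for BHLHE40 and 1.08 (SE 0.088) for BHLHE41, and the block changed no call. With the 2 series means per condition as replicates, the differences were the same but the SEs were larger, 0.115 for BHLHE40 and 0.154 for BHLHE41. In that fit 10 clock genes were higher and 2 lower in SHEP. Series of the same number deviated together across 14362 genes (r = 0.49), but with 2 numbers this does not show that they are pairs. Depth is unknown for TPM, SKNAS has 1 series per condition, and time points of a series are not independent cultures. SEs and p values may therefore be too small.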
